A study of Mus musculus with 4 samples.

Results

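The 39 genes described here are interferon-induced genes and interferon receptors read from endothelial cells of the mouse heart. They were taken from the deposited table by symbol, 39 of 39 listed symbols were found, and they make up 39 of its 24346 genes. All 4 libraries came from hearts of mice labelled young, of C57BL/6 background, whose endothelial cells were purified by flow cytometry and are described as freshly isolated. The 2 ECp53KO libraries, ECp53KO_170 and ECp53KO_172, carry a genotype label that is not spelled out. Since the series title speaks of endothelial p53, it is read as p53 knockout in that cell type. No source used here gives the Cre driver or the deleted exons. The 2 Ctrl libraries, Ctrl_178 and Ctrl_182, are labelled wild type. Levels are FPKM as deposited by the authors, fragment numbers scaled by transcript length and by library depth.

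Interferons are secreted signals of infection. Type I interferons act through the receptor chains Ifnar1 and Ifnar2, and interferon gamma through Ifngr1 and Ifngr2. Both routes use Stat proteins, which bind DNA alone or with Irf9 and switch on genes that block viral replication, sense foreign nucleic acid or attack vacuoles that hold pathogens. Many of these genes are also transcribed at a low, tonic level in uninfected tissue, endothelium included. Xaf1, a binding partner of the apoptosis inhibitor XIAP, is itself an interferon-induced gene. It is not among the 39 genes and serves as the point of comparison.

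The cells carried the endothelial marker Cdh5 at 982 and 958 FPKM in ECp53KO_170 and ECp53KO_172, against 1098 and 1022 FPKM in Ctrl_178 and Ctrl_182. Trp53, which encodes p53, had 4.41 and 2.45 FPKM in the ECp53KO libraries, against 52.1 and 28.8 FPKM in the Ctrl libraries, so the targeted transcript followed the labels. Estimated depth was 11400000 and 10000000 fragments in ECp53KO_170 and ECp53KO_172, against 11000000 and 22500000 in Ctrl_178 and Ctrl_182. A single fragment on a transcript of 2 kb was then worth 0.0222 to 0.05 FPKM, far below the level of every tested member. Sex-linked genes split the libraries across genotype. Xist had 0.0230 and 23.0 FPKM in ECp53KO_170 and ECp53KO_172, against 0.0352 and 23.9 FPKM in Ctrl_178 and Ctrl_182. The Y-linked gene Ddx3y went the other way, at 17.1 and 0.0422 FPKM in the ECp53KO libraries, against 21.7 and 0.912 FPKM in the Ctrl libraries.

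No single gene of the 38 that could be tested was called different between ECp53KO and Ctrl endothelium. Of the 39, 38 had a mean of at least 1 FPKM and were tested, and Mx1 was not. None was called in either direction by limma at an adjusted p of 0.05. None had an unadjusted p under 0.05 either, and the smallest was 0.0827, for Rtp4. Over all 11332 tested genes the same fit called 0.0265% higher and 0.0882% lower in ECp53KO. Unadjusted p-values under 0.05 were reached by 1.97% of all tested genes on the higher side and 2.82% on the lower side. The median log2 fold change, ECp53KO minus Ctrl on log2(FPKM + 1), was 0.11 for the 38 genes and 0.01 for all tested genes. In bulk libraries, fewer cells of a type and less RNA per cell cannot be told apart, and this holds for every level below. Nothing in the labels says that each library came from its own mouse. Xist and Ddx3y differed within each genotype, so its libraries were not repeats of a single mouse. The p-values measure only the spread between these libraries, which includes any difference between the sexes and any technical difference.

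The intervals show how large a difference the data leave room for. The 95% interval of the log2 fold change lay between -1 and 1 for 34 of the 38 genes, or 89.5%, against 80.5% of all tested genes. Oasl1, Irf1, Cxcl9 and Cxcl10 were the exceptions. The median distance from a fold change to the end of its interval was 0.50 on the log2 scale. It ran from 0.36 for Ifngr2 to 1.33 for Cxcl10. These intervals are not adjusted for the number of genes, whereas a call was adjusted over all 11332 tested genes and needed a clearer difference. Large differences could thus be missed. Trp53 itself was not called, at a log2 fold change of -3.20 with a 95% interval of -4.12 to -2.28 and a limma adjusted p of 0.146. Log2 fold changes were positive in 28 and negative in 10 of the 38 genes, or 73.7% positive, and in 51.7% of all tested genes. After rescaling each library to TPM, which divides by the library's FPKM total, 18 of 38 were positive. That total was highest in ECp53KO_170, at 732051, against 603783 in ECp53KO_172, 617026 in Ctrl_178 and 609366 in Ctrl_182. That rescaling moved the median of all genes by -0.107 on the log2 scale, and the 38 genes' median stood 0.089 above the all-gene median after it, against 0.095 before.

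**Figure D1:**
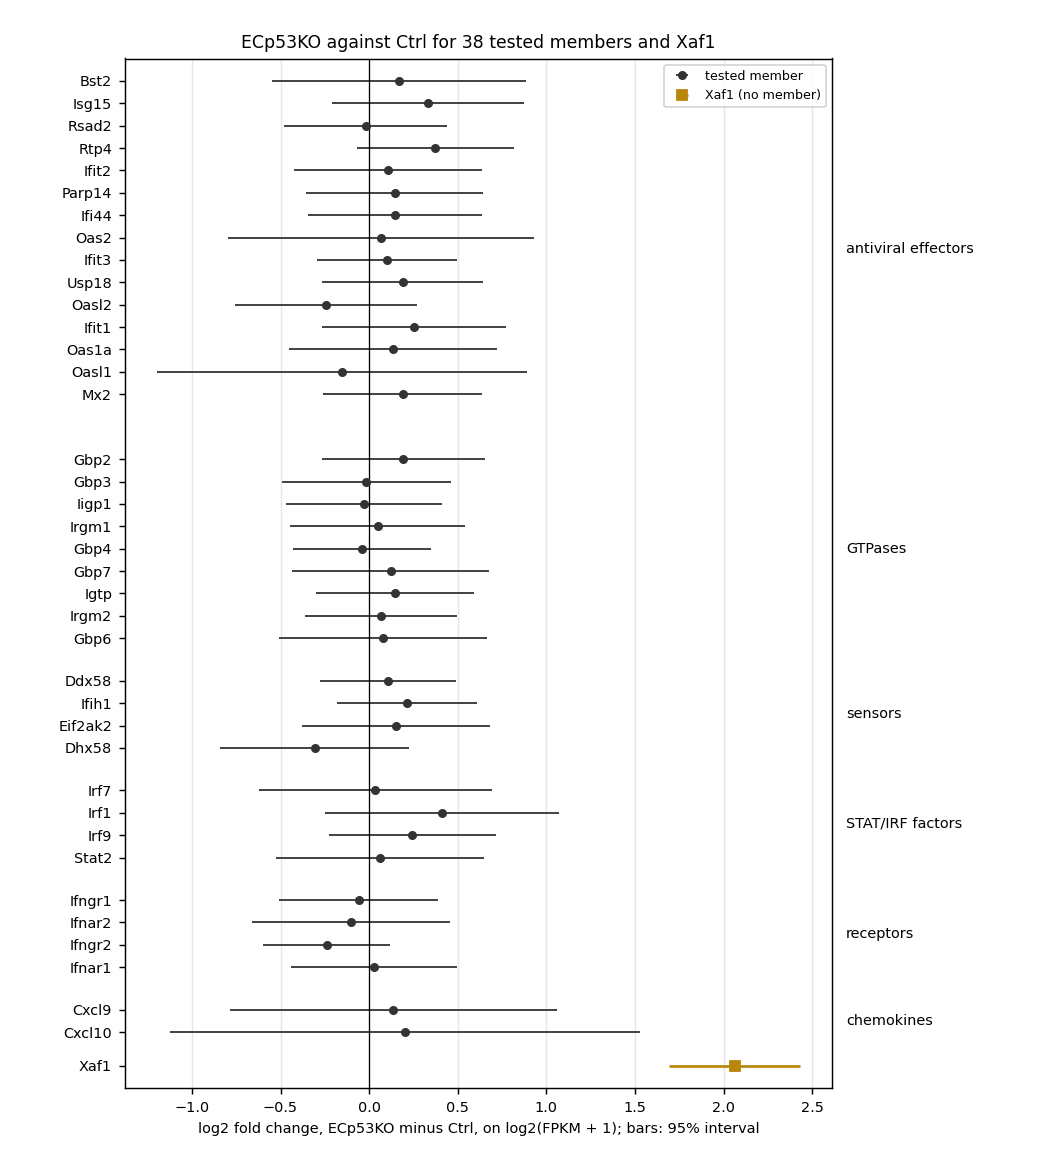
Log2 fold changes, ECp53KO minus Ctrl on log2(FPKM + 1), of 38 tested interferon-induced genes grouped by role, and of Xaf1 below them; points are limma estimates and bars are 95% intervals. Every interval of the 38 genes includes 0, and that of Xaf1 runs from 1.69 to 2.43.

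Groups without overlap were counted next, meaning that both ECp53KO libraries lay on the same side of both Ctrl libraries. Among the 38 genes, 8 were higher in ECp53KO without overlap, or 21.1%, beside 19.1% of all tested genes. The 8 were Isg15, Mx2, Rtp4, Gbp2, Ifih1, Ddx58, Irf1 and Irf9. One gene, Ifngr2, was lower without overlap, or 2.63%, beside 16.8% of all tested genes. The higher share was near the background. Under TPM, 1 gene, Rtp4, was higher and 3 receptor chains, Ifngr1, Ifngr2 and Ifnar2, were lower without overlap, beside 10.9% and 22.3% of all tested genes.

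Xaf1 stood apart from these genes. It had 134 and 138 FPKM in ECp53KO_170 and ECp53KO_172, against 31.8 and 31.8 FPKM in Ctrl_178 and Ctrl_182. Means were 136 ± 3.06 FPKM in ECp53KO and 31.8 ± 0.0236 FPKM in Ctrl (SD, n = 2 each), and the log2 fold change was 2.06 with a 95% interval of 1.69 to 2.43 and a limma adjusted p of 0.0251. The highest upper bound among the 38 genes was 1.53, for Cxcl10, so no member's interval reached that of Xaf1. Xaf1 exceeded the mean log2 level of the 39 genes by 1.93 and 1.70 in ECp53KO_170 and ECp53KO_172, and lay below it by -0.29 and -0.06 in Ctrl_178 and Ctrl_182. The Xaf1 call was lost with Xist as a covariate, at a limma adjusted p of 0.0823, under TPM, at 0.0516, and without a filter on low values, at 0.0578. It was also lost when any 1 library was left out, at limma adjusted p-values of 0.0862 to 0.345, while its log2 fold change stayed between 1.96 and 2.09.

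**Figure D2:**
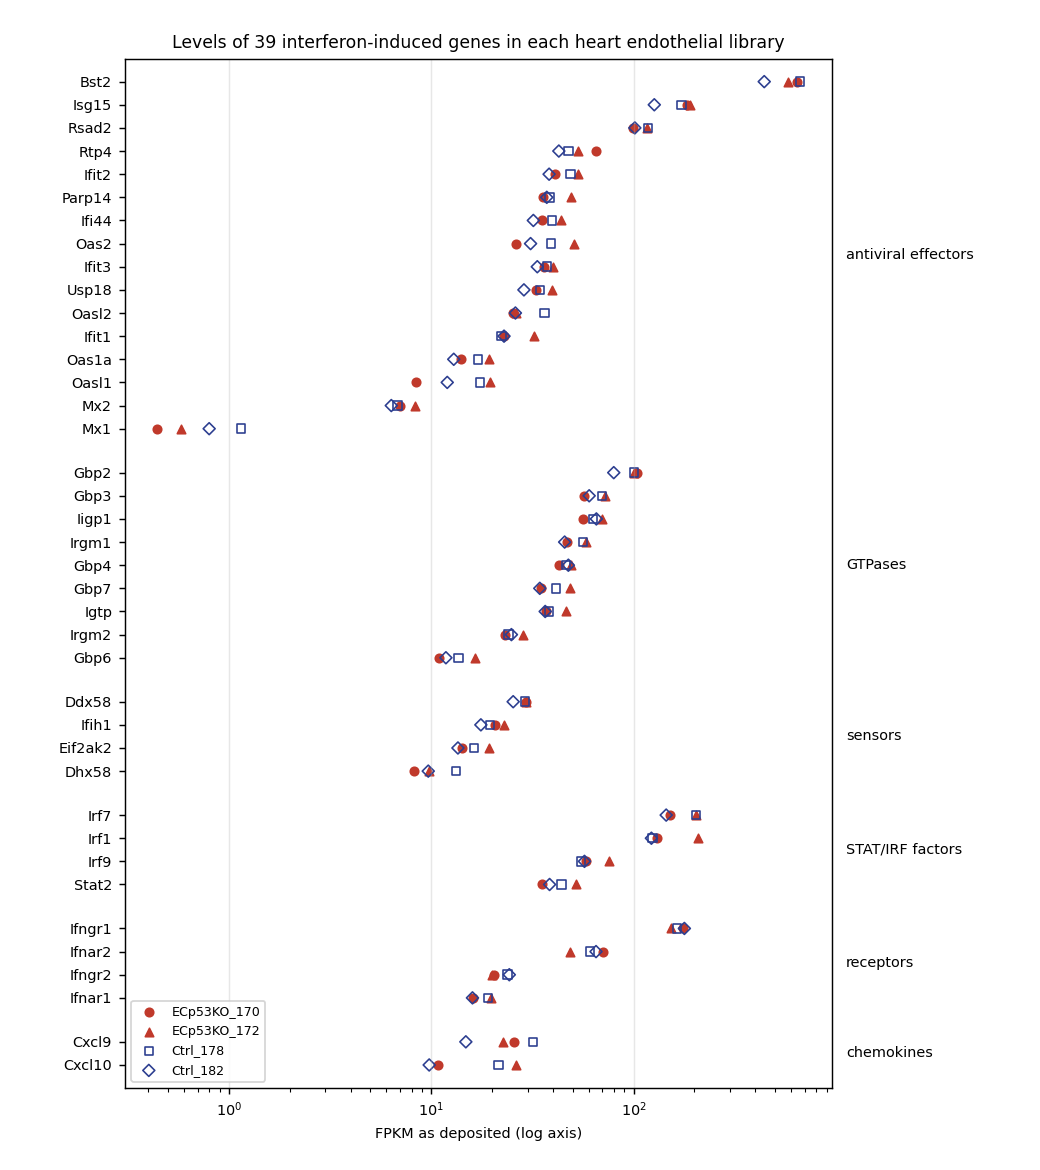
FPKM of the 39 genes on a log axis in each library, ordered within each role by mean level; filled red symbols are the ECp53KO libraries and open blue symbols the Ctrl libraries. For most genes the filled and open symbols interleave; Mx1, at 0.441 to 1.15 FPKM, is the lowest.

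Antiviral effectors made up 16 of the 39 genes. Of the 15 tested, 12 had a positive log2 fold change (9 under TPM), and the median log2 fold change was 0.14. The groups of 3, or 20%, did not overlap and were higher in ECp53KO, beside 19.1% of all tested genes. Under TPM this held for 1 effector, Rtp4, beside 10.9% of all tested genes. The highest level was that of Bst2, or tetherin, a membrane protein that holds budding viruses on the cell surface. Bst2 had 642 and 579 FPKM in ECp53KO_170 and ECp53KO_172, against 664 and 443 FPKM in Ctrl_178 and Ctrl_182. The groups overlapped, because Ctrl_178 was the highest library and Ctrl_182 the lowest. Isg15, a ubiquitin-like protein that is conjugated to other proteins, followed with 183 and 189 FPKM in the ECp53KO libraries, against 172.2 and 126.6 FPKM in Ctrl_178 and Ctrl_182. The log2 fold change of Isg15 was 0.33 ± 0.21 (SE, 95% interval -0.21 to 0.87, limma adjusted p = 0.864). Its groups did not overlap, but the gap between the 2 Ctrl libraries was wider than that between the genotypes' nearest libraries. Rsad2, or viperin, an enzyme that makes a chain-terminating nucleotide, had 99.8 and 117 FPKM in ECp53KO_170 and ECp53KO_172, against 118 and 101 FPKM in Ctrl_178 and Ctrl_182. Its log2 fold change was -0.02 with a 95% interval of -0.48 to 0.44, and the libraries of each genotype spanned nearly the same range.

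The Ifit genes encode tetratricopeptide proteins that bind viral RNA. Ifit1 had 22.8 and 32.0 FPKM in ECp53KO_170 and ECp53KO_172, against 22.2 and 22.9 FPKM in Ctrl_178 and Ctrl_182, so ECp53KO_172 alone stood higher. Ifit2 stood at 41.0 and 52.9 FPKM in the ECp53KO libraries, against 48.7 and 38.2 FPKM in the Ctrl libraries. Ifit3 stood at 35.9 and 40.1 FPKM in the ECp53KO libraries, against 37.3 and 33.4 FPKM in the Ctrl libraries. The groups of all 3 Ifit genes overlapped. Usp18, which removes Isg15 from proteins and damps interferon receptor signalling, had 32.9 and 39.3 FPKM in ECp53KO_170 and ECp53KO_172, against 34.4 and 28.7 FPKM in Ctrl_178 and Ctrl_182. The same library order was seen in Ifi44, at 35.4 and 44.0 FPKM in the ECp53KO libraries, against 39.5 and 32.0 FPKM in the Ctrl libraries.

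Oligoadenylate synthases make a second messenger that activates RNase L, and their Oas-like relatives add further antiviral activity. Oas2 was at 26.1 and 50.9 FPKM in ECp53KO_170 and ECp53KO_172, against 39.1 and 31.0 FPKM in Ctrl_178 and Ctrl_182. Oasl1, an inhibitor of Irf7 translation in mice, was at 8.43 and 19.5 FPKM in the ECp53KO libraries, against 17.4 and 11.99 FPKM in the Ctrl libraries. In both genes ECp53KO_170 was the lowest and ECp53KO_172 the highest of the 4 libraries, so the Ctrl libraries lay between them. The interval of Oasl1, -1.20 to 0.89 around a log2 fold change of -0.15, was the widest among the effectors. Oas1a and Oasl2 also overlapped, with log2 fold changes of 0.14 and -0.24.

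Rtp4, a chaperone of receptors that is induced by interferon, had 65.0 and 53.1 FPKM in ECp53KO_170 and ECp53KO_172, against 47.7 and 42.7 FPKM in Ctrl_178 and Ctrl_182. Means were 59.1 ± 8.40 FPKM in ECp53KO and 45.2 ± 3.51 FPKM in Ctrl (SD, n = 2 each). The log2 fold change of Rtp4 was 0.37 ± 0.17 (SE, 95% interval -0.07 to 0.82, limma adjusted p = 0.864). Rtp4 overlaps Masp1 in the annotation, and the library kit kept no strand, so their reads cannot be told apart where they overlap. Mx2, an antiviral dynamin-like GTPase, had 6.97 and 8.35 FPKM in the ECp53KO libraries, against 6.80 and 6.35 FPKM in the Ctrl libraries, without overlap. Mx1, its paralog, is disrupted by a deletion in many laboratory mouse strains. It stood lower in ECp53KO without overlap, at 0.441 and 0.579 FPKM, against 1.15 and 0.798 FPKM in Ctrl. Parp14, a mono-ADP-ribosyltransferase, had 35.8 and 48.9 FPKM in ECp53KO_170 and ECp53KO_172, against 38.4 and 37.2 FPKM in Ctrl_178 and Ctrl_182.

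Interferon-inducible GTPases, which coat and disrupt vacuoles of intracellular pathogens, made up 9 of the genes, all tested. Log2 fold changes were positive in 6 of the 9, and in 3 of the 9 under TPM, with a median of 0.07. Gbp2, a guanylate-binding protein, was the highest of them, at 104 and 101 FPKM in ECp53KO_170 and ECp53KO_172, against 100.2 and 79.8 FPKM in Ctrl_178 and Ctrl_182. Its groups did not overlap, though Ctrl_178 lay next to the ECp53KO libraries and Ctrl_182 stood apart, and the log2 fold change was 0.19 with a 95% interval of -0.27 to 0.65. Gbp3 was at 57.1 and 71.9 FPKM in the ECp53KO libraries, against 69.7 and 60.3 FPKM in the Ctrl libraries. Iigp1, an immunity-related GTPase of the effector class, was at 56.5 and 69.9 FPKM in the ECp53KO libraries, against 62.9 and 65.5 FPKM in the Ctrl libraries. For Gbp3 and Iigp1 the Ctrl values lay inside the range of the ECp53KO values. Gbp4, Gbp6 and Gbp7 overlapped as well, with log2 fold changes of -0.04, 0.08 and 0.12. Several Gbp, Irgm, Oas and Ifit genes have close paralogs, and no source used here says how the authors' quantification divided shared reads, so their single values are uncertain.

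The 3 GTPases on chromosome 11 gave similar pictures. Irgm1, which guards self membranes, had 46.9 and 58.5 FPKM in ECp53KO_170 and ECp53KO_172, against 56.1 and 45.6 FPKM in Ctrl_178 and Ctrl_182. Irgm2 had 23.1 and 28.5 FPKM in the ECp53KO libraries, against 24.1 and 24.9 FPKM in the Ctrl libraries. Igtp, also called Irgm3, had 36.9 and 46.6 FPKM in the ECp53KO libraries, against 38.2 and 36.6 FPKM in the Ctrl libraries. Their log2 fold changes were 0.05, 0.07 and 0.15, and in all 3 genes ECp53KO_172 was the highest library.

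Cytosolic sensors of double-stranded RNA made up 4 genes. Ddx58, which encodes RIG-I, had 29.4 and 29.3 FPKM in ECp53KO_170 and ECp53KO_172, against 29.0 and 25.4 FPKM in Ctrl_178 and Ctrl_182. Ifih1, which encodes MDA5, had 20.6 and 22.8 FPKM in the ECp53KO libraries, against 19.5 and 17.6 FPKM in the Ctrl libraries. Both had no overlap and were higher in ECp53KO, though both overlapped and Ddx58 turned negative under TPM, with log2 fold changes of 0.11 and 0.21 and limma adjusted p-values of at least 0.864. Eif2ak2, the kinase PKR that blocks translation, overlapped at 14.2 and 19.4 FPKM in the ECp53KO libraries, against 16.2 and 13.5 FPKM in the Ctrl libraries. Dhx58, or LGP2, which modulates the other RNA sensors, had the lowest log2 fold change of the 38 genes, -0.31 ± 0.21 (SE, 95% interval -0.84 to 0.23, limma adjusted p = 0.864). It was at 8.26 and 9.74 FPKM in ECp53KO_170 and ECp53KO_172, against 13.3 and 9.66 FPKM in Ctrl_178 and Ctrl_182. ECp53KO_172 and Ctrl_182 were almost equal, and Ctrl_178 stood apart above them.

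The transcription factors numbered 4, all with positive log2 fold changes and a median of 0.15, but under TPM those of Irf7 and Stat2 turned negative. Irf7, which drives the amplification of type I interferon, was at 152 and 204 FPKM in ECp53KO_170 and ECp53KO_172, against 203 and 145 FPKM in Ctrl_178 and Ctrl_182. The 4 libraries formed a high and a low pair with 1 library of each genotype in each. Irf1, an activator used by interferon gamma, was at 131 and 207 FPKM in ECp53KO_170 and ECp53KO_172, against 124 and 123 FPKM in Ctrl_178 and Ctrl_182. Means were 168.8 ± 54.05 FPKM in ECp53KO and 123.2 ± 1.010 FPKM in Ctrl (SD, n = 2 each), and the log2 fold change of 0.41 ± 0.26 (SE, 95% interval -0.25 to 1.07, limma adjusted p = 0.864) was the highest of the 38. ECp53KO_172 stood far above the other libraries and ECp53KO_170 close to the Ctrl libraries. Irf9, a DNA-binding partner of Stat2, was at 58.5 and 76.0 FPKM in the ECp53KO libraries, against 55.1 and 57.2 FPKM in the Ctrl libraries. Stat2 overlapped, at 35.2 and 52.2 FPKM in the ECp53KO libraries, against 44.0 and 38.4 FPKM in the Ctrl libraries.

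The 4 receptor chains had a median log2 fold change of -0.08, and 1 of them was positive, or none under TPM. Ifngr1, the ligand-binding chain for interferon gamma, was at 176 and 153 FPKM in ECp53KO_170 and ECp53KO_172, against 163.7 and 178.3 FPKM in Ctrl_178 and Ctrl_182. Ifnar2, a chain of the type I interferon receptor, was at 70.5 and 48.7 FPKM in the ECp53KO libraries, against 60.9 and 65.2 FPKM in the Ctrl libraries. The Ctrl values of Ifnar2 lay inside the ECp53KO range. Its partner Ifnar1 was at 16.03 and 19.82 FPKM in the ECp53KO libraries, against 19.10 and 15.98 FPKM in the Ctrl libraries. Ifngr2, the accessory chain, was the only tested member lower in ECp53KO without overlap, at 20.37 and 20.05 FPKM in ECp53KO_170 and ECp53KO_172, against 23.8 and 24.3 FPKM in Ctrl_178 and Ctrl_182. Its libraries lay close together within each genotype, with a log2 fold change of -0.24 ± 0.14 (SE, 95% interval -0.60 to 0.12, limma adjusted p = 0.864).

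Both chemokines, which attract activated lymphocytes through Cxcr3, varied widely within genotype. Cxcl10 had 10.8 and 26.2 FPKM in ECp53KO_170 and ECp53KO_172, against 21.5 and 9.77 FPKM in Ctrl_178 and Ctrl_182. The higher ECp53KO library exceeded the lower 2.42-fold and the higher Ctrl library exceeded the lower 2.199-fold, and the 95% interval of the log2 fold change, -1.12 to 1.53, was the widest of the 38. Cxcl9 had 25.5 and 22.7 FPKM in the ECp53KO libraries, against 31.9 and 14.8 FPKM in the Ctrl libraries, which lay on either side. Cxcl10 overlaps Art3 in the annotation, so unstranded reads of the pair cannot be told apart there.

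For most genes, differences between libraries of the same genotype were larger than those between genotypes. The larger within-genotype difference exceeded the fold change in 35 of 38 genes, or 92.1%, against 77.7% of all tested genes. The median absolute log2 fold change was 0.14, against 0.17 for all tested genes. The median of the larger within-genotype difference was 0.37, against 0.34. A difference of single libraries is set here against a difference of means, which favours the former for any gene. The within-genotype differences of the 38 genes had a common direction. ECp53KO_172 was above ECp53KO_170 in 30 of 38 genes, or 78.9%, against 46.3% of all tested genes, with a median difference of 0.30 on the log2(FPKM + 1) scale. Ctrl_178 was above Ctrl_182 in 30 of 38, or 78.9%, against 51.6% of all tested genes, with a median difference of 0.21. Both orders held together in 25 genes, or 65.8%, against 23.5% of all tested genes. The members share their libraries, so these counts describe 4 libraries and carry no test.

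**Figure D3:**
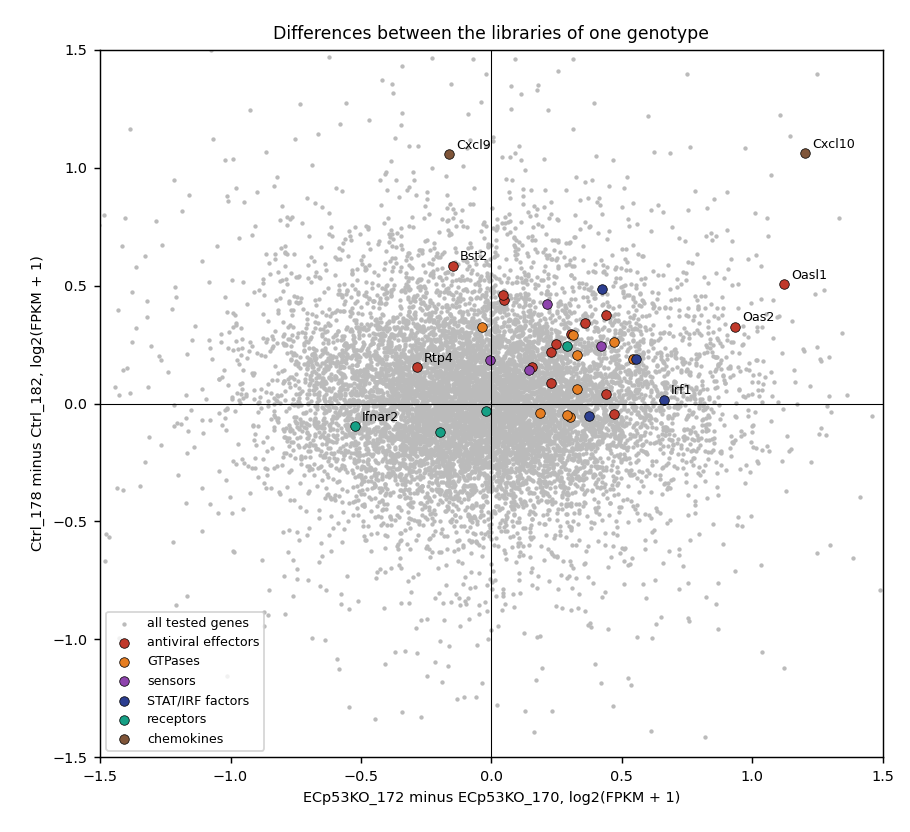
Differences between libraries of the same genotype on the log2(FPKM + 1) scale, ECp53KO_172 minus ECp53KO_170 on the horizontal axis and Ctrl_178 minus Ctrl_182 on the vertical axis; coloured points are the 38 genes by role and grey points all tested genes. Of the 38 genes, 25 lie above 0 on both axes; 261 tested genes lie outside the axes, which end at 1.5.

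The roles followed this order in unequal numbers. Among the effectors, 12 of 15 were higher in both ECp53KO_172 and Ctrl_178, as were 5 of 9 GTPases, 3 of 4 sensors, 3 of 4 transcription factors, 1 of 2 chemokines and 1 of 4 receptors. Cxcl10, Oasl1 and Oas2, chosen after their values were seen, had the widest differences between the ECp53KO libraries among the genes that followed both orders. The mean log2(FPKM + 1) of the 39 genes was 5.15 in ECp53KO_170 and 5.42 in ECp53KO_172, against 5.33 in Ctrl_178 and 5.09 in Ctrl_182. The genotypes interleave on this score.

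Leukocytes respond to and secrete interferon, so their markers were read beside this pattern. The summed level of 12 leukocyte markers was 5.01 and 9.58 FPKM in ECp53KO_170 and ECp53KO_172, against 10.4 and 6.67 FPKM in Ctrl_178 and Ctrl_182, and thus had the same order within each genotype as the 39 genes. Between 3 and 7 of the 12 were listed at 0 in each library. The pan-leukocyte marker Ptprc stood at 0.0654 and 0 FPKM in the ECp53KO libraries, against 0.0511 and 0.108 FPKM in the Ctrl libraries, and the T cell and NK cell markers Cd3e and Nkg7 were at 0 in all 4. Of the sums, the macrophage and neutrophil gene Lyz2 gave 2.52 to 3.19 FPKM in each library. The sums differed mainly through S100a8 and Cd68. S100a8 stood at 0.433 and 6.47 FPKM in the ECp53KO libraries, against 2.25 and 1.54 FPKM in the Ctrl libraries. Cd68 stood at 0.702 and 0.307 FPKM, against 4.31 and 1.08 FPKM. The order of the ECp53KO sums rested on S100a8, since Cd68 and Lyz2 were lower in ECp53KO_172 than in ECp53KO_170. Summed levels of 10 endothelial markers were 27248 and 21926 FPKM in the ECp53KO libraries, against 19091 and 26328 FPKM in the Ctrl libraries. Fabp4 made up most of that sum, and the other 9 summed to 5550 and 5050 FPKM in the ECp53KO libraries, against 4892 and 4731 FPKM in the Ctrl libraries. Summed cardiomyocyte and erythroid markers were highest in ECp53KO_170. Cardiomyocyte markers summed to 333.7 and 176.2 FPKM in ECp53KO_170 and ECp53KO_172, against 171.6 and 161.1 FPKM in Ctrl_178 and Ctrl_182. Erythroid markers summed to 315 and 85.4 FPKM, against 59.9 and 33.4 FPKM. The cardiomyocyte sums differed mainly through Myl2, at 145 and 81.1 FPKM, against 81.8 and 66.0 FPKM, and Nppa, at 57.0 and 7.33 FPKM, against 8.55 and 13.3 FPKM. Myh6 was nearly level in ECp53KO_170 and Ctrl_178, at 4.55 and 4.42 FPKM, and Myh7 was highest in Ctrl_178. The erythroid sums differed mainly through Hbb-b1 and Hbb-bs, at 191 and 66.9 FPKM in ECp53KO_170, where Slc4a1 was at 0. Pericyte and smooth muscle markers were higher in both ECp53KO libraries, at 152 and 126 FPKM, against 83.0 and 103 FPKM. Fibroblast markers were lower in both, at 44.4 and 51.4 FPKM, against 59.4 and 59.6 FPKM. That sum differed mainly through Pi16, at 16.3 and 26.4 FPKM in the ECp53KO libraries, against 33.3 and 31.4 FPKM in the Ctrl libraries. Of 5 tested fibroblast markers, 3 were lower without overlap, Dcn overlapped, and Pdgfra was higher without overlap. The part of any of these cell types in the levels of the 39 genes was not tested.

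The rest of the pathway was read from a separate list of 79 genes, of which 78 were in the table and 58 were tested. None of the 58 was called by limma in either direction, and 34 were positive and 24 negative, with a median log2 fold change of 0.08. The groups did not overlap in 15 that were higher and 5 that were lower in ECp53KO, or 25.9% and 8.62%, beside 19.1% and 16.8% of all tested genes. Unadjusted limma p-values under 0.05 were reached by 1 of the 58 on the higher side, Nmi, and 1 on the lower side, Irf8. Over all tested genes the shares were 1.97% on the higher side and 2.82% on the lower side. Nmi, a Stat-interacting protein, had 71.8 and 61.5 FPKM in the ECp53KO libraries, against 46.1 and 50.1 FPKM in the Ctrl libraries, with a log2 fold change of 0.46. Irf8, a factor best known from myeloid cells, had 2.496 and 2.195 FPKM in the ECp53KO libraries, against 4.109 and 5.423 FPKM in the Ctrl libraries, with a log2 fold change of -0.78. The within-genotype order of the 39 genes, ECp53KO_172 and Ctrl_178 both higher, was also that of 31 of these 58 genes, or 53.4%. Of the interferons themselves, 9 were in the table and none reached the level for testing. They were listed at 0 in every library except for Ifnb1 at 0.146 FPKM and Ifng at 0.0412 FPKM, both in Ctrl_182, the deepest library.

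Position on chromosome 11, which carries Trp53, was examined because Xaf1 lies 2.72 Mb from it. Trp53 spans chr11:69580348-69591873 and Xaf1 chr11:72301461-72313733 in GRCm38.p6. Of the 39 genes, 5 are on this chromosome and none lies within 5 Mb of Trp53. Igtp and Irgm2 are 11.4 Mb away, Irf1 15.8 Mb, Irgm1 20.7 Mb and Dhx58 31.1 Mb. Their log2 fold changes were 0.15, 0.07, 0.41, 0.05 and -0.31, in that order, and span the range of the 38 genes. A difference carried by sequence linked to Trp53 cannot be told apart from one that follows loss of p53 in this design, for Xaf1 or for any other gene on the chromosome.

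**Figure D4:**
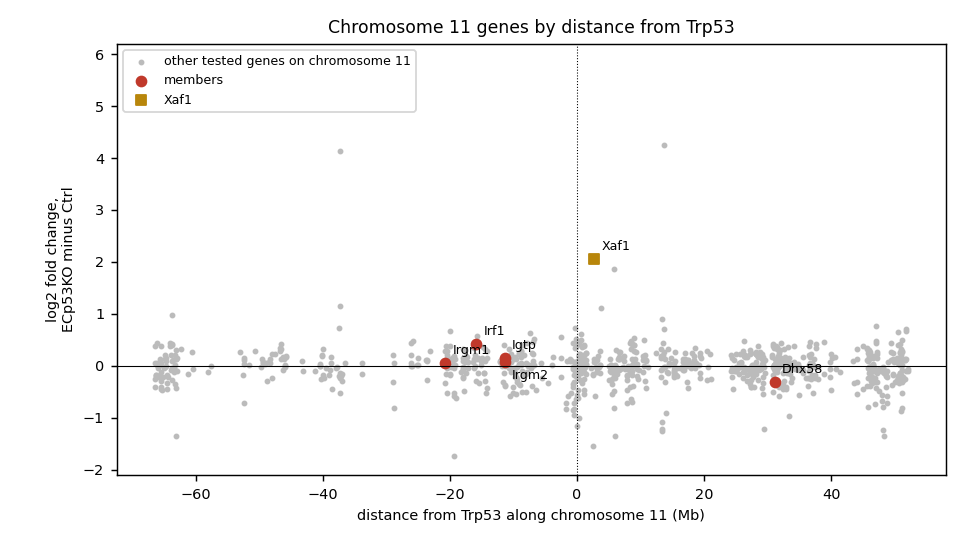
Log2 fold change, ECp53KO minus Ctrl on log2(FPKM + 1), of tested genes on chromosome 11 against their distance from Trp53 in Mb; red points are the 5 interferon-induced genes, the gold square is Xaf1 and grey points are other tested genes. The 5 genes lie between -0.31 and 0.41 and at least 11.4 Mb from Trp53; Xaf1 lies at 2.06 and 2.72 Mb.

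Promoter sequences were compared with the levels to see whether genes with interferon response motifs moved differently. Windows of 250 bases before to 50 bases after a transcript start came from RefSeq (GRCm38.p6) and were matched by symbol for 29 of the 39 genes. A pair of motifs was searched on both strands: the core of the interferon-stimulated response element (ISRE), bound by Irf9 in complex with Stat proteins and written GAAA, any 2 bases, GAAA, and the gamma-activated site (GAS), a site for Stat dimers written TTC, any 3 bases, GAA. Of the 29 genes, 17 held an ISRE core, or 58.6%, against 3.99% of 27025 genes with a window. A GAS was held by 10, or 34.5%, against 9.55% of those genes. Both occurred in 6 genes, neither in 8, and the motifs overlapped each other in Bst2. A match describes the letters and is not a binding site.

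The following windows show the 3 arrangements and the one without a match, 5′ to 3′ on the gene's own strand, with matched letters in capitals. The Isg15 window (chr4:156200769-156201068, minus strand) has 3 ISRE cores that run into each other. The Ifit1 window (chr19:34640639-34640938, plus strand) has 2, on the opposite strand. That of Igtp (chr11:58199306-58199605, plus strand) has a GAS just before an ISRE core, and that of Irf1 (chr11:53769764-53770063, plus strand) a GAS alone. The Xaf1 window (chr11:72301379-72301678, plus strand) has neither.
Isg15: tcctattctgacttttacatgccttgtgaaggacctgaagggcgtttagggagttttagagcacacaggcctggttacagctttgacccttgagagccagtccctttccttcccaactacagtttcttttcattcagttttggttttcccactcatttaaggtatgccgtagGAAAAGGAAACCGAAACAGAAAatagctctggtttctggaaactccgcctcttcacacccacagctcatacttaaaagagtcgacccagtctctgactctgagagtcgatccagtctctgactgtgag
Ifit1: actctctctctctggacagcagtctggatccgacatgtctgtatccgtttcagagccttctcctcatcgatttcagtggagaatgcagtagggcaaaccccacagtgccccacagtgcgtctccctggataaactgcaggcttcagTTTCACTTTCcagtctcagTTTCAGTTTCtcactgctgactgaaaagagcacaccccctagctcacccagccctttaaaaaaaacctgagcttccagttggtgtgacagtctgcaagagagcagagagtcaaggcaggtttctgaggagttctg
Igtp: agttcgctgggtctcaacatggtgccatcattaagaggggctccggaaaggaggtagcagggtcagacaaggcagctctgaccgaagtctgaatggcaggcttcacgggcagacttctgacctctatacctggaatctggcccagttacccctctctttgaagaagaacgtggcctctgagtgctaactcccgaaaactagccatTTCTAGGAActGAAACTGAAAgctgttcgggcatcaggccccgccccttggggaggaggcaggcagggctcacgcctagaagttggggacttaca
Irf1: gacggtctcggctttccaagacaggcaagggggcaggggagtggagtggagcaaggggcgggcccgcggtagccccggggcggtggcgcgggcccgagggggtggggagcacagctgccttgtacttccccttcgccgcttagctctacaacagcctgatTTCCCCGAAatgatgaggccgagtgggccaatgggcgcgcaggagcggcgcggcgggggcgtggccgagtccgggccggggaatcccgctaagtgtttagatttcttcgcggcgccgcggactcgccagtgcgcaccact
Xaf1: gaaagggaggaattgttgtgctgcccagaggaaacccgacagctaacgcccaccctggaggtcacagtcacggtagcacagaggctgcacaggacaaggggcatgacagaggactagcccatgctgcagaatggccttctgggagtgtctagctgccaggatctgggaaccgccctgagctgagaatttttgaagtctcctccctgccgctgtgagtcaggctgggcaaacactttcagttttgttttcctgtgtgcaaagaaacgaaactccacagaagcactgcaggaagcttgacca

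All 6 GTPases and all 3 sensors with a window held an ISRE core, as did 6 of 10 effectors, 1 of 4 transcription factors, 1 of 2 chemokines and none of 4 receptors. The 17 genes with an ISRE core had a median log2 fold change of 0.14, with a range of -0.02 to 0.33. Of these, 15 were positive on the scale as deposited, beside 51.7% of all tested genes. The 12 with a window and no ISRE core had a median of 0.03, with a range of -0.24 to 0.41, and 7 were positive. They include all 4 receptor chains, whose median was -0.08, and the 17 include none. The sets with and without an ISRE core thus differ in role as well as in motif. Under TPM, Ifit3, Irgm1, Irgm2, Ddx58 and Stat2 of the 17 turned negative, as did Ifit2, Irf7 and Ifnar1 of the 12. Neither range came near the log2 fold change of Xaf1, 2.06, whose window held no match. Only the exact patterns were searched, so variant sites and sites outside the windows were not counted. The within-genotype order, ECp53KO_172 above ECp53KO_170 and Ctrl_178 above Ctrl_182, was followed by 12 of the 17 with an ISRE core and by 7 of the 12 without. Isg15, with 3 cores, had a log2 fold change of 0.33, Ifit1, with 2, had 0.25, Igtp, with an ISRE core and a GAS, had 0.15, and Irf1, with a GAS alone, had 0.41.

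**Figure D5:**
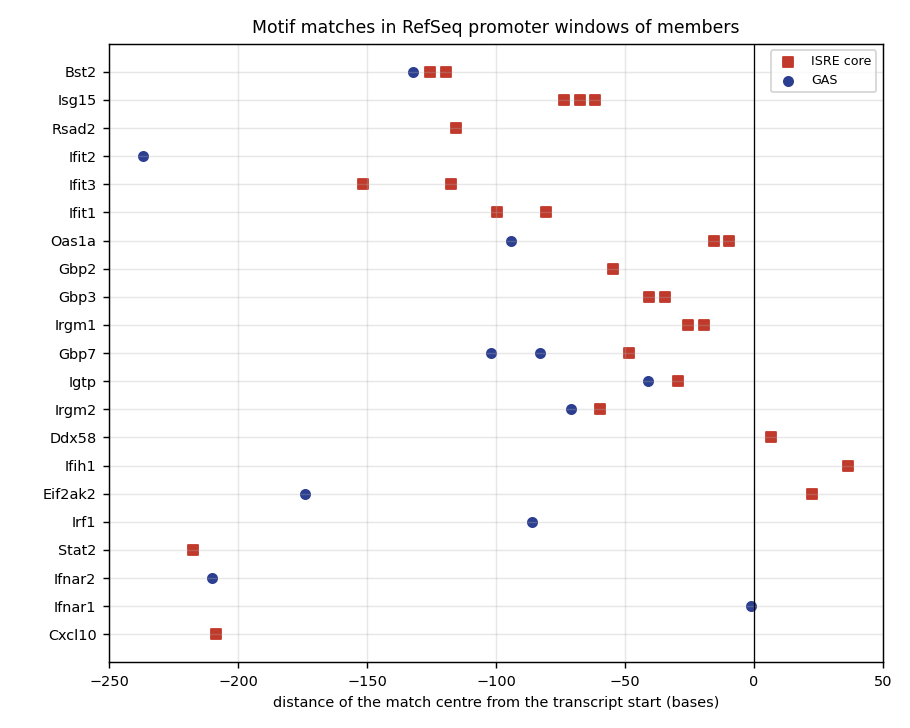
Position of each motif match in the promoter windows of 21 interferon-induced genes, given as the distance of its centre from the transcript start in bases; squares are ISRE cores and circles are GAS. The 3 squares of Isg15 adjoin each other, and Irf1 has a single circle.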

How the data were processed

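RNA was measured in 4 libraries of sorted heart endothelial cells. Per the labels' protocols, polyadenylated RNA was made into libraries without keeping strand and sequenced in pairs. The submitters' processing notes name Cufflinks 2.2.1, TopHat2 2.1.0, Trimmomatic 0.36, FastQC 0.11.5, bcl2fastq 2.17 and the build mm10, the browser name of GRCm38. No source used here gives the role of each or the gene annotation. The authors deposited a table of FPKM for 24346 genes, whose column sums ran from 603783 to 732051.

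Because FPKM are not counts, count models were not used. The scale was log2(FPKM + 1), the 11332 genes tested averaged 1 FPKM or more over the libraries, and the tool was limma 3.58.1 (R 4.3.3). It used a variance trend over intensity, two-sided tests and Benjamini-Hochberg adjustment at 0.05. The fit had 2 residual degrees of freedom and gained 3.15 from the shared variance estimate. Fold changes are ECp53KO minus Ctrl on this scale, which understates the change of low genes. No covariate was used in the reported fit.

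Depth came from the commonest value of FPKM times transcript length at the low end of 2172 genes with a single transcript, taken as 1 fragment. Positions and promoter windows came from RefSeq, in which 23142 symbols matched directly, 1099 by a synonym and 105 not at all.

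The members, their roles, the pathway and marker lists and the motifs were chosen with earlier results of these data known. Receptors and chemokines were set apart from the 4 roles of effectors, GTPases, sensors and STAT/IRF factors. The rule for naming genes took the 3 highest by mean FPKM in each role, members with an unadjusted p under 0.05, members without overlap and an absolute log2 fold change of at least 0.5, members on chromosome 11, and Trp53, Xaf1 and other pathway genes with an unadjusted p under 0.05. A further gene of the rule is not reported here. Other genes named, such as Rtp4, Mx2 and Oas2, were chosen after their values were seen. Alternatives covered pseudocount, filter, scaling, small RNA loci, transcript length, variance shrinkage, Xist and leaving out each library.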

Additional observations from a re-analysis of the deposited data

Results flagged for a closer look

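Within pairs of libraries that share Xist status, the medians of the 38 tested genes had opposite signs, though single genes, such as Rtp4, Isg15 and Irf1, were higher in ECp53KO in both pairs. The median log2 difference was 0.371 for ECp53KO_172 minus Ctrl_182, both with Xist above 1 FPKM, and 35 of 38 were higher in ECp53KO_172. It was -0.152 for ECp53KO_170 minus Ctrl_178, both with Xist below 1 FPKM, and 11 of 38 were higher in ECp53KO_170. The difference between the pairs was not tested, since each pair holds 1 library per genotype.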

How the results depend on the processing

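No member was called in any of the 15 alternatives, and the smallest limma adjusted p of a member over them was 0.323. The labels gave no pairing, because ECp53KO and Ctrl libraries have no number in common. A fit with Xist status as a covariate, which matches 1 library of each genotype with 1 of the other, stands below. Leaving out a library leaves 1 in its genotype, which is then assumed to vary like the others.

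The median log2 fold change of the members, 0.11, ran from -0.0747 without ECp53KO_172 to 0.265 without ECp53KO_170, was 0.21 without Ctrl_178 and -0.01 without Ctrl_182, and was -0.0061 under TPM. Members higher without overlap numbered 8, but 1 under TPM and 9 to 30 with a library left out. Members lower without overlap numbered 1, but 2 without a filter, 3 under TPM and 2 to 13 with a library left out. With fewer libraries non-overlap is commoner for any gene: the shares of all tested genes without overlap were then 32.5% to 42.5% higher and 29.5% to 35.7% lower. Members reached 78.9% higher without ECp53KO_170, beside 33.1% of all genes, and 23.7% higher without ECp53KO_172, beside 42.5%. The higher members with an unadjusted p under 0.05 numbered 0 to 3 with a library left out: Ifit1, Irf1 and Irf9 without ECp53KO_170, and Rtp4 without ECp53KO_172. No share of all tested genes stands beside these member counts, and each such fit has 1 library in a genotype. The counts therefore do not show that members passed more often than other genes. Over all genes, 3 called higher became 5 with robust shrinkage, 5 with 0.1 as the pseudocount, 5 at an adjusted p of 0.1, 1 without a filter and 1 to 21 with a library left out. The 10 called lower became 4 without small RNA loci, 4 with the length trend removed and 12 to 58 with a library left out. With Xist as a covariate the smallest limma adjusted p of a member was 0.903.

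A direction held in every alternative for 12 of the 38 members. Under TPM the log2 fold change turned negative for Ifit2 (-0.0069), Ifit3 (-0.012), Oas2 (-0.045), Gbp6 (-0.031), Irgm1 (-0.067), Irgm2 (-0.045), Ddx58 (-0.0054), Irf7 (-0.082), Stat2 (-0.055) and Ifnar1 (-0.084). It turned positive on median centring for Rsad2 (0.010) and Gbp3 (0.012), and with the length trend removed for Rsad2 (0.036) and Gbp4 (0.041). With a library left out, 17 members turned without ECp53KO_172, 5 without ECp53KO_170, 14 without Ctrl_182 and 3 without Ctrl_178. Their log2 fold changes then ran from -0.073 to 0.287 for Ifit2, -0.083 to 0.354 for Oas1a, -0.399 to 0.537 for Oas2, -0.714 to 0.407 for Oasl1, -0.132 to 0.096 for Rsad2, -0.0041 to 0.300 for Ifi44, -0.122 to 0.462 for Bst2 and -0.077 to 0.364 for Parp14. They ran from -0.180 to 0.148 for Gbp3, -0.132 to 0.056 for Gbp4, -0.194 to 0.349 for Gbp6, -0.111 to 0.358 for Gbp7, -0.181 to 0.123 for Iigp1, -0.019 to 0.311 for Igtp, -0.109 to 0.205 for Irgm1 and -0.079 to 0.213 for Irgm2. They ran from -0.058 to 0.363 for Eif2ak2, -0.209 to 0.276 for Irf7, -0.218 to 0.336 for Stat2, -0.118 to 0.172 for Ifnar1, -0.367 to 0.158 for Ifnar2, -0.157 to 0.039 for Ifngr1, -0.392 to 0.665 for Cxcl9 and -0.398 to 0.806 for Cxcl10. The cause of these changes was not tested.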
